A study of Arabidopsis thaliana with 6 samples.

Results

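The nuclear photosystem and antenna genes encode the chlorophyll-binding antenna proteins of photosystem II (LHCB) and photosystem I (LHCA), the nuclear-encoded subunits of both photosystems (PSB and PSA), carriers of photosynthetic electron transport, and subunits of the plastid ATP synthase. They were chosen as a list of 51 locus codes, of which 41 had a row among the 20777 loci of the deposited table. The 10 listed genes that were not analysed here are LHCB1.1 to LHCB1.5, LHCB2.1, LHCB2.2, LHCB3, LHCA2 and PSBX, so the main trimeric antenna of photosystem II is represented by LHCB2.3 alone. All 51 codes carried the listed gene in a RefSeq gene table of the TAIR10.1 assembly.

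The antenna proteins absorb light and pass the energy to the reaction centres. Photosystem II takes electrons from water, the cytochrome b6f complex and plastocyanin carry them to photosystem I, and ferredoxin and its NADP reductase use them to make NADPH, while the proton gradient drives the ATP synthase. The reaction-centre cores are encoded in the plastid, but nearly all antenna proteins and many peripheral subunits are made from nuclear genes that are highly expressed in green leaf tissue.

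The values come from 6 ATH1 arrays of Arabidopsis thaliana Col-0, of which 3 were hybridised with wild-type RNA and 3 with RNA of 35S::GRF5 plants. GRF5 is a transcription factor that promotes cell proliferation in leaves, and the 35S promoter drives it in most cells and not only where GRF5 is normally active. The plants grew on MS medium at 22 °C under a cycle of 16 h light and 8 h darkness, and the vegetative tissue of seedlings was taken at growth stage 1.03. Samples within a group are labelled as biological repeats, and 1 overexpressing line is named, so line and transgene cannot be told apart. The comparison asks how transcript values differ between this line, studied for its larger leaves, and wild type.

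Values are on the RMA log2 scale. The GRF5 transcript itself read 4.26 to 4.75 over the wild-type arrays and 11.34 to 12.08 over the 35S::GRF5 arrays, as their labels say. The vegetative label was checked against marker genes: the 3 flower organ genes AG, AP3 and PI had mean values of 3.77 to 4.06 per array, the 4 seed storage genes 3.82 to 3.99 and the 5 root hair and root endodermis genes 4.55 to 4.85, below the array medians of 6.38 to 6.43. Carbonic anhydrase CA1, abundant in mesophyll, read 13.54 to 13.77. Among 4 epidermis, 5 phloem and xylem and 4 stomatal lineage genes, 1 passed the threshold, which 0.77% of all loci passed. It was the stomatal receptor gene TMM, which was higher (log2 difference 0.64, adjusted p = 0.031 in limma). Its call was lost when 35S::GRF5 replicate 2 or 3, or wild type replicate 1 or 3, was left out (adjusted p 0.0891 to 0.145 in limma). Differences were positive in 3 of 4 stomatal lineage, 3 of 4 epidermis and 3 of 5 phloem and xylem genes, and negative in the rest. The negative stomatal one, added after its value was seen, was FMA (-0.32, adjusted p = 0.402 in limma).

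None of the 41 photosystem and antenna genes passed the threshold in limma, which was an adjusted p under 0.05 over all 20777 loci: 0 were higher and 0 lower in 35S::GRF5, where 0.77% of all loci were called. Their differences, 35S::GRF5 minus wild type, ran from -0.30 in LHCB4.3 to 0.18 in LHCA5, that is from 0.812-fold to 1.13-fold. At an unadjusted p under 0.05 there were 2 genes, both lower, LHCB4.3 and FNR2, where 15.5% of all loci reached that p. Lower values at that p made up 5.97% of all loci and higher values 9.49%, beside 2 and 0 of the 41 members. The median difference was 0.04, beside 0.02 for all loci. Positive differences were 28 of 41, beside 56.2% of all loci. With each array centred on its median, the members' median was -0.0023 and 20 of 41 differences were positive. Centring shifts the difference of every locus by the same amount, and the median of all loci became -0.014. The count of signs thus depends on the offset between arrays, and no common direction is read from it.

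The 95% intervals show how large a difference these arrays leave room for in each gene. The median interval reached 0.20 log2 units to either side, compared with 0.23 over all loci. All 41 intervals lay within 1.5-fold in either direction, as did 90.3% of all loci. Within 1.25-fold lay 35 of the 41 (85.4%), compared with 40.2% of all loci. Among the 51 other loci with a mean value of 13 or more, that share was 68.6%. The 6 that reached past 1.25-fold were those of LHCB4.1, LHCB4.3, LHCA5, PSAD2, PSAH2 and FNR2. These intervals are for single genes, are not adjusted for the number of genes, and cover the spread between arrays only.

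**Figure D1:**
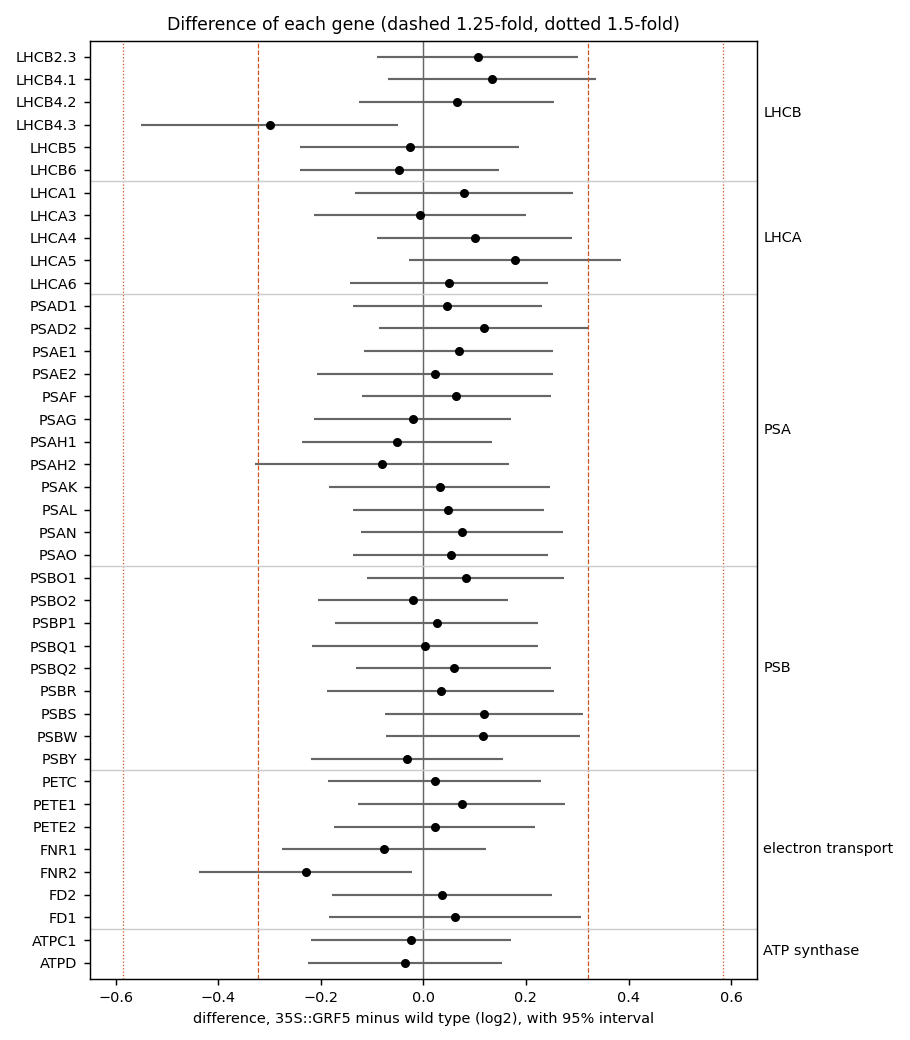
Difference of each of the 41 genes between 35S::GRF5 and wild type (log2, horizontal axis), with points for the limma estimate and lines for its 95% interval, n = 3 arrays per group. All intervals lie between the dotted lines at 1.5-fold, and those of LHCB4.3 and FNR2 lie wholly below 0.

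The members read near the top of the array's range. Their mean values over the 6 arrays ran from 8.36 in LHCB4.3 to 14.36 in PSAK, with a median of 13.65. Of the 41, 40 lay above the 97th percentile of all loci, 36 above the 99th, and all 41 above the median, so none was lost to a filter on low values. PSAK held the highest single value in the table, 14.46. Values of different genes are not compared as transcript amounts, because each locus has its own probes.

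**Figure D2:**
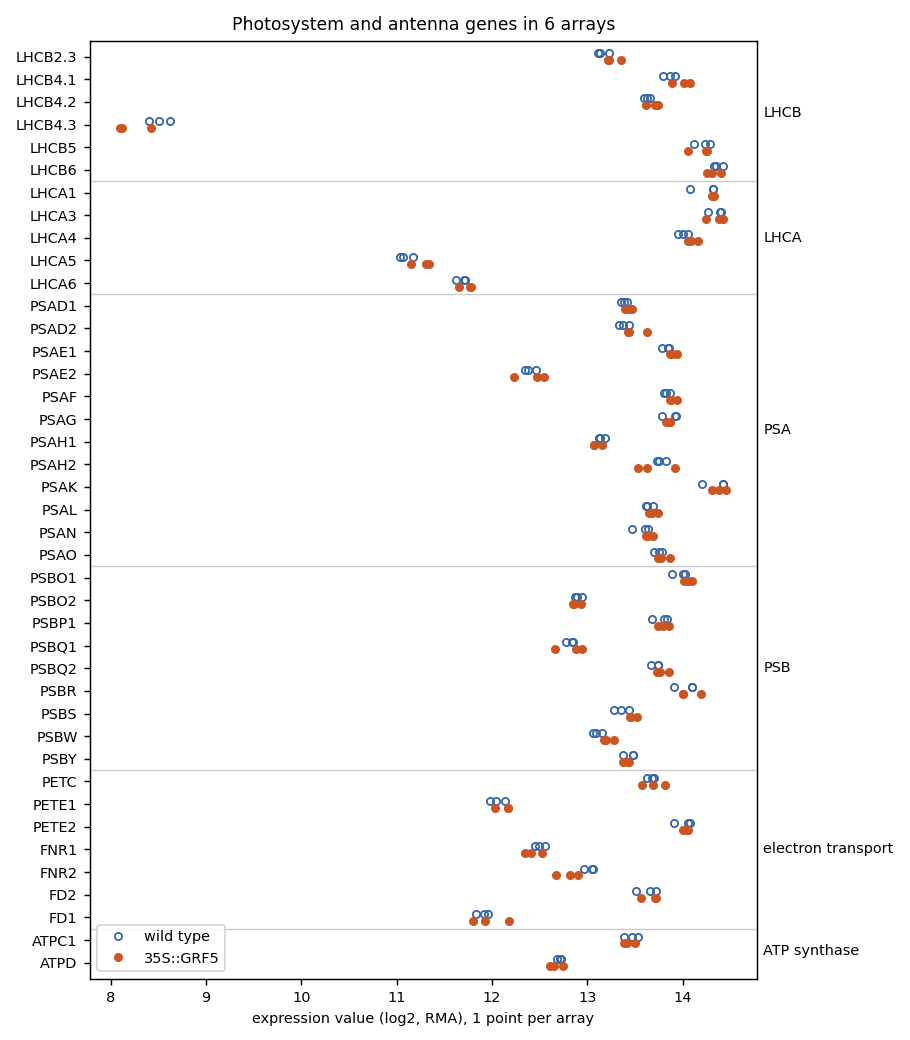
Expression value of each gene in each array (log2 RMA value, horizontal axis), with open circles for the 3 wild-type and filled circles for the 3 35S::GRF5 arrays. All genes but LHCB4.3 read above 11, and the circles of both groups overlap for all but PSAE1, PSBS, PSBW and FNR2.

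The highest mean value of any called locus was 11.14, and 40 of the 41 members lay above it, together with 529 other loci. Above the 97th percentile 0.321% of 624 loci were called, and above the 99th percentile 0 of 208. Of the 51 loci that read 13 or more and are not members, 0 were called by limma and 3 had an unadjusted p under 0.05. Their median absolute difference was 0.08, compared with 0.05 for the members and 0.11 for all loci. Small differences were thus also the rule among other loci of this level. Whether the array's response to RNA flattens at such values was not tested.

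The spread between arrays was also small. The standard deviation within groups had a median of 0.07 over the members, from 0.04 to 0.15, beside 0.13 over all loci. The highest and lowest of the 6 arrays differed by a median of 0.21 per gene, from 0.09 in PSBO2 to 0.52 in LHCB4.3. Bulk RNA of the vegetative tissue does not separate the number of green cells from the RNA per cell.

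**Figure D3:**
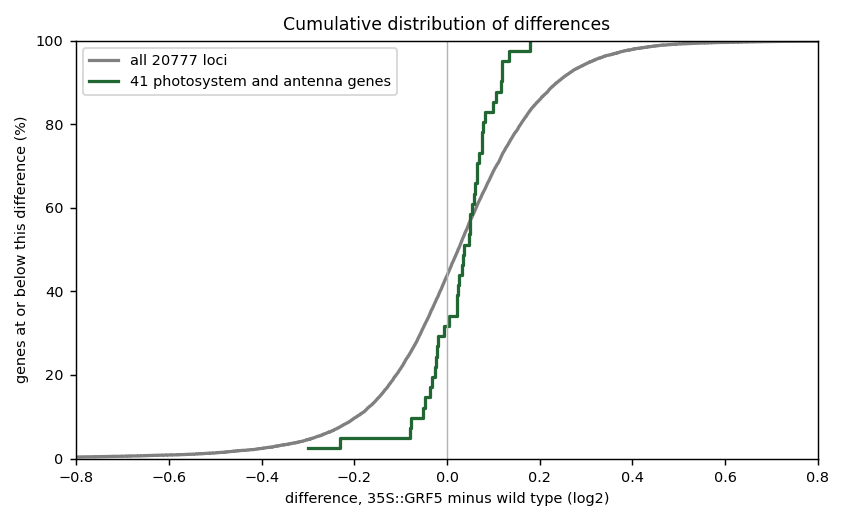
Cumulative share of genes (%, vertical axis) at or below a given difference between 35S::GRF5 and wild type (log2, horizontal axis), for the 41 photosystem and antenna genes and for all 20777 loci. The members' curve rises more steeply, with 80.5% of differences within 0.1 of 0 compared with 47.2% of all loci. Among the 51 other loci with a mean value of 13 or more, which are not drawn, the share was 64.7%.

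The antenna of photosystem II was represented by 6 of 14 listed genes, of which 3 had positive and 3 negative differences. LHCB4.3 (AT2G40100), a divergent isoform of the monomeric antenna protein CP29, had the lowest difference of all members. In the order of the replicate numbers, used for all values that follow, it read 8.40, 8.63 and 8.51 in wild type and 8.10, 8.12 and 8.42 in 35S::GRF5. Replicates 1 and 2 of 35S::GRF5 were below every wild-type array, while replicate 3 was just above wild type replicate 1, so the groups overlapped. The difference was -0.30 (95% interval -0.55 to -0.05, n = 3 per group; unadjusted p = 0.0241, adjusted p = 0.238 in limma). Leaving out single arrays gave differences of -0.40 to -0.24, so the sign held throughout.

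The other CP29 genes, LHCB4.1 and LHCB4.2, had positive differences that did not pass the test. LHCB4.1 (AT5G01530) read 13.86, 13.92 and 13.79 in wild type and 13.89, 14.01 and 14.07 in 35S::GRF5, a difference of 0.13 (-0.07 to 0.34; adjusted p = 0.524 in limma). LHCB4.2 differed by 0.07 (-0.12 to 0.26). For both, the lowest 35S::GRF5 array lay within the wild-type range.

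LHCB2.3 (AT3G27690), of the trimeric antenna that moves between photosystems, read 13.14, 13.23 and 13.11 in wild type and 13.35, 13.21 and 13.23 in 35S::GRF5. Its difference was 0.11 (-0.09 to 0.30; adjusted p = 0.618 in limma), and 35S::GRF5 replicate 1 alone lay above all wild-type arrays. The monomeric antenna genes LHCB5 (CP26) and LHCB6 (CP24) differed by -0.03 and -0.05, with overlapping groups.

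Of the photosystem I antenna, 5 of 6 listed genes were measured and 4 had positive differences, beside 56.2% of all loci. LHCA5 (AT1G45474), which with LHCA6 links photosystem I to the NADH dehydrogenase-like complex, had the highest difference of all members. It read 11.03, 11.06 and 11.17 in wild type and 11.34, 11.31 and 11.15 in 35S::GRF5, a difference of 0.18 (-0.03 to 0.38; adjusted p = 0.394 in limma). Replicates 1 and 2 of 35S::GRF5 exceeded all wild-type arrays, and replicate 3 did not. LHCA6 differed by 0.05 (-0.14 to 0.24).

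The other measured photosystem I antenna genes encode the belt around its core. LHCA4 (AT3G47470) read 13.95, 14.05 and 13.997 in wild type and 14.05, 14.16 and 14.09 in 35S::GRF5, a difference of 0.10 (-0.09 to 0.29; adjusted p = 0.627 in limma), with 1 35S::GRF5 array inside the wild-type range. LHCA1 (AT3G54890) read 14.31, 14.32 and 14.08 in wild type and 14.30, 14.31 and 14.32 in 35S::GRF5. The low value is that of wild type replicate 3, and without this array the LHCA1 difference went from 0.08 to -0.00038. LHCA3 differed by -0.0066.

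All 12 listed photosystem I subunit genes were measured, and 9 had positive differences, beside 56.2% of all loci. Their range was narrow, from -0.08 in PSAH2 to 0.12 in PSAD2 (AT1G03130), with a median of 0.05. PSAD and PSAE form the stromal ridge where ferredoxin docks, and each is encoded by a pair of genes. PSAD2 read 13.33, 13.37 and 13.43 in wild type and 13.62, 13.44 and 13.43 in 35S::GRF5, a difference of 0.12 (-0.09 to 0.32; adjusted p = 0.588 in limma). The 35S::GRF5 replicate 1 value stood above the rest, and without that array the difference was 0.06.

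PSAE1 (AT4G28750) read 13.85, 13.85 and 13.78 in wild type and 13.89, 13.87 and 13.94 in 35S::GRF5, so every 35S::GRF5 array was above every wild-type array. The difference was 0.07 (-0.12 to 0.25; adjusted p = 0.743 in limma). PSAN (AT5G64040), a lumenal subunit near the site where plastocyanin docks, read 13.64, 13.60 and 13.46 in wild type and 13.68, 13.62 and 13.63 in 35S::GRF5. It differed by 0.08 (-0.12 to 0.27; adjusted p = 0.737 in limma), with wild type replicate 3 again the lowest array.

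PSAF, another subunit at that site, differed by 0.06. PSAG and PSAK, which sit beside the antenna, differed by -0.02 and 0.03. PSAL and PSAO, which with PSAH form the side where the mobile antenna binds, differed by 0.05 each, and PSAH1 and PSAH2 by -0.05 and -0.08. Groups overlapped for each of these.

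Of the photosystem II subunits, 9 of 10 listed genes were measured and 7 had positive differences, beside 56.2% of all loci. Their median was 0.03. PSBS (AT1G44575), the sensor protein of energy-dependent quenching, read 13.44, 13.35 and 13.28 in wild type and 13.52, 13.46 and 13.44 in 35S::GRF5. The groups did not overlap, but the gap was small and the difference of 0.12 (-0.08 to 0.31) had an adjusted p of 0.564 in limma. PSBW (AT2G30570), a small subunit that stabilises the complex with its antenna, read 13.15, 13.09 and 13.06 in wild type and 13.20, 13.28 and 13.17 in 35S::GRF5. It too did not overlap, with a difference of 0.12 (-0.07 to 0.31; adjusted p = 0.558 in limma).

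Across all members 3 genes had non-overlapping groups with higher values in 35S::GRF5, PSAE1, PSBS and PSBW, and 1 with lower, FNR2 (AT1G20020). Among all loci 13.2% did not overlap with higher values and 8.45% with lower ones. Of the 51 other loci with a mean value of 13 or more, 5 did not overlap with higher values and 7 with lower ones. Whether the members' counts of 3 and 1 of 41 differ from these shares was not tested.

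The oxygen-evolving complex on the lumen side is built from PSBO, PSBP and PSBQ. PSBO1 (AT5G66570), the main gene of the manganese-stabilising protein, read 14.02, 14.01 and 13.89 in wild type and 14.06, 14.01 and 14.09 in 35S::GRF5, a difference of 0.08 (-0.11 to 0.28; adjusted p = 0.699 in limma). PSBO2 differed by -0.02, PSBP1 by 0.03, PSBQ1 by 0.0035 and PSBQ2 by 0.06. PSBR, which helps to hold these proteins, differed by 0.03, and the small membrane subunit gene PSBY by -0.03. These genes had overlapping groups.

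Among the 7 electron transport genes, FNR2 had the lowest difference. It encodes 1 of the leaf ferredoxin-NADP reductases. FNR2 read 13.05, 13.06 and 12.96 in wild type and 12.67, 12.81 and 12.90 in 35S::GRF5, so all 35S::GRF5 arrays were below all wild-type arrays. The difference was -0.23 (-0.44 to -0.02, 0.853-fold; unadjusted p = 0.0337, adjusted p = 0.274 in limma). Without single arrays it was -0.28 to -0.17.

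FNR1 (AT5G66190), the gene of the other leaf reductase, read 12.49, 12.56 and 12.45 in wild type and 12.34, 12.41 and 12.52 in 35S::GRF5. Replicate 3 of 35S::GRF5 lay inside the wild-type range, and the difference was -0.08 (-0.28 to 0.12; adjusted p = 0.732 in limma). PETE1 (AT1G76100), a plastocyanin gene, read 12.04, 11.97 and 12.13 in wild type and 12.17, 12.03 and 12.17 in 35S::GRF5, a difference of 0.07 (-0.13 to 0.28; adjusted p = 0.746 in limma). The second plastocyanin gene PETE2 differed by 0.02, the Rieske protein gene PETC of the cytochrome b6f complex by 0.02, and the ferredoxin genes FD1 and FD2 by 0.06 and 0.04.

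Both listed subunits of the plastid ATP synthase had small negative differences. ATPD (AT4G09650), the delta subunit at the top of the catalytic head, read 12.68, 12.71 and 12.72 in wild type and 12.64, 12.61 and 12.74 in 35S::GRF5, a difference of -0.04 (-0.23 to 0.15; adjusted p = 0.878 in limma). ATPC1 (AT4G04640), the main gene of the gamma subunit, read 13.47, 13.53 and 13.39 in wild type and 13.39, 13.42 and 13.50 in 35S::GRF5. It differed by -0.02 (-0.22 to 0.17; adjusted p = 0.925 in limma), and the arrays of both groups interleaved.

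Several subunits are encoded by similar genes, and the value of 1 locus can include RNA of another if probes are shared; which probes stand for which locus is not stated in the labels. The values of such genes are therefore given side by side above, and their difference from each other was not tested.

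Taken over the 41 members, the mean value per array was 13.29, 13.29 and 13.22 for wild type and 13.27, 13.28 and 13.32 for 35S::GRF5. The groups overlapped. Wild type replicate 3 was the low array: it held the lowest of the 6 values for 21 of 41 members and the lowest wild-type value for 29. Without it the median difference of the members was 0.0023 and 21 of 41 differences were positive, while 0 genes were called, as with all arrays.

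Wild type replicate 3 also had the highest value of the 6 arrays for 3 of 4 touch response genes, which are induced by handling. TCH3 read 9.80 there and 7.07 to 8.25 in the other 5 arrays, STZ 7.65 and 4.52 to 4.95, and TCH2 7.71 and 6.02 to 6.44. The other gene of that list, XTR6, read 4.205 there, the lowest of its 6 values. The mean of the list was 7.34 there and 5.50 to 5.995 in the others. The part of this array's state in the members' values was not tested beyond leaving it out. Medians over all loci were also higher in every 35S::GRF5 array (6.41 to 6.43) than in any wild-type array (6.38 to 6.39). Nearer the members' level, the 99th percentile of all loci was 12.20 to 12.24 in 35S::GRF5 and 12.13 to 12.16 in wild type. The part of these offsets in the members' values was not tested beyond array centring and quantile normalization.

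**Figure D4:**
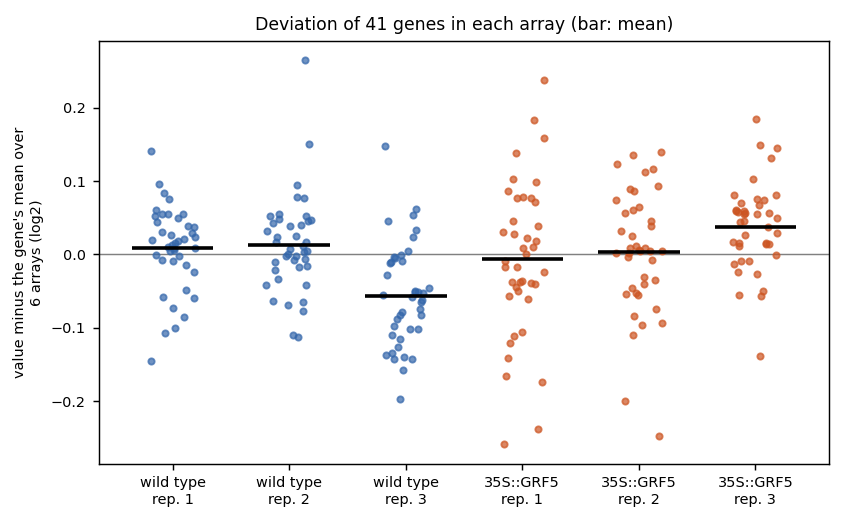
Deviation of each of the 41 genes from its own mean over the 6 arrays (log2, vertical axis), by array, with black bars for the array mean. Points of wild type replicate 3 lie mostly below 0, with a mean of -0.06, and those of 35S::GRF5 replicate 3 have a mean of 0.04.

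Genes that act around the photosystems were examined as further lists. Of 13 genes for assembly, membrane insertion and turnover of photosystem proteins, 0 passed the threshold in limma. An unadjusted p under 0.05 was reached by 2 of the 13, both higher, beside 9.49% of all loci that were higher at that p. The median difference of the 13 was 0.07, beside 0.02 for all loci. Positive differences were 13 of 13, beside 56.2% of all loci, and 10 of 13 with centred arrays or with quantile normalization. CPSRP54, a subunit of the particle that delivers antenna proteins to the thylakoid, read 10.31, 10.28 and 10.17 in wild type and 10.59, 10.72 and 10.45 in 35S::GRF5. The difference was 0.33 (0.12 to 0.55, adjusted p = 0.153 in limma). Its groups did not overlap, as for 3 of the 13 genes, all higher, beside 13.2% of all loci. CEST (AT5G44650), which encodes a chloroplast protein linked to stress tolerance, was another of these and differed by 0.22 (adjusted p = 0.281 in limma).

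Of 7 light-harvesting-like genes, 4 had positive and 3 negative differences and 0 passed in limma. An unadjusted p under 0.05 was reached by 1 of the 7, beside 15.5% of all loci. Groups did not overlap for 4 of the 7, 2 higher and 2 lower, beside 13.2% and 8.45% of all loci. LIL3:2 and LIL3:1, whose proteins hold enzymes of chlorophyll and tocopherol synthesis at the membrane, differed by 0.20 and 0.19 (adjusted p = 0.291 and 0.355 in limma), and these were the higher ones. The lower ones, added after their values were seen, were ELIP1, an early light-induced protein gene, at -0.21 (-0.44 to 0.02; adjusted p = 0.366 in limma), and AT1G76570 at -0.06 (-0.25 to 0.12; adjusted p = 0.763 in limma). Of 17 measured genes for other electron transport, NADH dehydrogenase-like and ATP synthase proteins, 0 passed and 0 had an unadjusted p under 0.05, with a median difference of -0.0065. STN8, a kinase of photosystem II core proteins, differed by 0.16 (adjusted p = 0.543) and PDE334, of the membrane part of the ATP synthase, by -0.12 (adjusted p = 0.58 in limma).

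GLK and GATA transcription factors promote the expression of photosystem and chlorophyll genes. Of 4 such genes 0 passed in limma, and 3 had positive differences and 1 a negative one. GNC differed by 0.49 (0.18 to 0.79; adjusted p = 0.141) and GLK2 by 0.20 (0.0026 to 0.40; adjusted p = 0.318), with all 35S::GRF5 arrays above all wild-type arrays for both, as for 13.2% of all loci. CGA1, a GATA factor closely related to GNC and added after its value was seen, had the negative difference, -0.23 (-0.52 to 0.06; adjusted p = 0.436 in limma), with overlapping groups. Antenna genes follow the circadian clock, and the labels used here give no hour of harvest. Of 9 measured clock genes 5 had positive and 4 negative differences. In limma 1 was called lower and 0 higher, beside 0.486% and 0.284% of all loci. The lower one was LHY, with a difference of -0.69 (adjusted p = 0.0286 in limma). PRR3 differed by 0.35 (adjusted p = 0.252 in limma). CCA1, added after its value was seen, differed by -0.32 (adjusted p = 0.297 in limma). This call of LHY was lost when 35S::GRF5 replicate 2 or 3, or wild type replicate 1 or 3, was left out (adjusted p 0.0814 to 0.134). The part of clock phase in the members' values was not tested.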

How the data were processed

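The authors deposited log2 values; RMA is the tool that the submitters' processing notes name, with no version. RMA subtracts background, makes probe distributions equal across arrays and combines the probes of a gene. Which probes form each locus and which arrays were normalised together is not stated. Each of 20777 locus codes has 1 value per array and 0 are missing. Detection calls were not used. Precision is limited by the number of arrays, 3 per group. Every sample title carries the note expt 3, whose meaning is not stated, and the labels name no batch.

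Groups were taken from the sample titles. A two-sided limma fit (version 3.58.1, R 4.3.3, lmFit with eBayes) was made over all loci without a filter, with Benjamini-Hochberg adjustment and a threshold of 0.05. The fit was tested on simulated data with normal noise, in which loci drawn at random were given a known difference. A simulated log2 difference of 0.25 was called in 2.8% of such loci, 0.5 in 56.8% and 1 in 100%. Real differences of 0.25 or less would thus mostly go uncalled in such loci at this threshold. The differences of 33 of the 41 members were under 0.1 in size, below the smallest simulated one. Spread within groups was larger over all loci (median 0.13) than over the members (0.07), and rates for the members alone were not estimated. A RefSeq table (TAIR10.1) gave names, with 20508 loci found and 269 not. The members, lists and naming rule were chosen with earlier results of these data known. The rule gave per-array values to the 3 genes with the smallest p of each of 6 classes and named the 2 of each further list, with any called gene.

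No pairing by replicate number was visible: same-numbered deviations from the group means correlated at -0.05, 0.06 and -0.11. Different-numbered ones correlated at -0.08 to 0.11. With 3 arrays per group this cannot tell whether arrays shared a day or batch. Alternatives were the replicate block, filters at the 25th percentile and the median, array centring, quantile normalization, trend with robust estimation, array weights, and leaving out each array. Promoter and protein sequences were not used here.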

Additional observations from a re-analysis of the deposited data

How the results depend on the processing

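The number of photosystem and antenna genes past the threshold was 0 under all 13 alternatives, with a lowest adjusted p of 0.15 in limma. With the replicate block it was 0 of 41, the lowest adjusted p was 0.279, and 114 of all loci were called. The number of all loci called was 160, 252 with trend and robust estimation, 294 with array weights and 17 to 186 without single arrays; it was 17, 96 and 50 without wild type replicates 1, 2 and 3 and 63 and 69 without 35S::GRF5 replicates 2 and 3. The median difference of the members, 0.04, became -0.0023 with centred arrays, 0.0034 with quantile normalization and 0.0023 to 0.061 without single arrays.

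The sign of 27 of the 41 members never turned; in the other 14, whose difference was at most 0.08 in size, it did. With centred arrays the difference was -0.016 in PSAE2 and PETC, -0.017 in PETE2, -0.0064 in PSAK, -0.013 in PSBP1, -0.035 in PSBQ1, -0.0048 in PSBR and -0.0023 in FD2. With quantile normalization it was -0.0065 in PSAE2, -0.0014 in PSBQ1, -0.066 in PSBR and -0.030 in PETE2. With array weights it was 0.0015 in LHCA3 and -0.010 in FD1. Without single arrays the difference ran from -0.075 to 0.037 in LHCB5, -0.00038 to 0.12 in LHCA1, -0.052 to 0.047 in LHCA3, -0.042 to 0.12 in PSAE2, -0.067 to 0.0044 in PSAG, -0.039 to 0.068 in PSAK, -0.023 to 0.059 in PSBP1. It ran from -0.054 to 0.087 in PSBQ1, -0.030 to 0.067 in PSBR, -0.039 to 0.082 in PETC, -0.030 to 0.052 in PETE2, -0.025 to 0.087 in FD2, -0.043 to 0.15 in FD1 and -0.061 to 0.0092 in ATPC1. The cause was not tested. These differences are smaller than the interval of 0.20 that 3 arrays per group give, and no detection calls were used.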
